A study of Mus musculus with 7 samples.

Results

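The ADAM, ADAMTS, MMP and TIMP genes were followed in adult mouse hippocampal neural stem and progenitor cells (NSPCs) in culture and in whole dentate gyrus (DG). Members were every gene whose symbol is Adam, Adamts or Mmp followed by a number, with or without 1 further letter for Adam and Mmp, or Timp1 to Timp4. This gave 79 of the 50600 entries of the bulk table, namely 33 ADAM, 19 ADAMTS, 23 MMP and 4 TIMP genes. The single-cell table listed 42 of them among its 15536 genes.

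All material came from C57Bl6J mice with no transgene named in the labels. Bulk RNA sequencing covered 4 separate primary NSPC cultures (F1 and F2 from females, M1 and M2 from males; mice of 6 to 8 weeks, passages 6 to 15). They were grown on poly-d-lysine and laminin in Neurobasal A with B27 lacking vitamin A, GlutaMAX, and epidermal growth factor and basic fibroblast growth factor at 20 ng/ml each. Whole DG tissue came from 1 female (F1) and 1 male (M2) mouse of 7 to 9 weeks and was not cultured. A separate droplet library held cells of 3 NSPC cultures, 2 of them female (mice of 6 to 9 weeks, passages 6 to 15, same medium), mixed before loading, so it counts as 1 sample. Culture libraries were made with a SMART-Seq HT kit and whole DG libraries with a NEBNext Ultra II Directional kit. The RNA integrity number was given as 10 for the cultures and 8 for whole DG. Neither the kit nor RNA integrity can be told apart from the group for the bulk differences below.

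Gene counts summed to between 9917697 and 11747408 in the cultures and to 16676618 and 17351636 in whole DG. Members took 0.207 to 0.233% of counts in the cultures and 0.186 to 0.190% in whole DG. Markers were checked against the labels. Summed neuron markers stood at 33.6 to 39.3 counts per 1000000 (CPM) in the cultures and at 8085 to 8575 CPM in whole DG. Of 7 stem and progenitor markers, 5 were higher and 2 (Sox2 and Hes5) lower in the cultures, with summed levels of 3291 to 4300 CPM in the cultures and 140.1 to 145.9 CPM in whole DG. Oligodendrocyte, microglia, endothelial, mural and fibroblast, and choroid plexus markers were lower in the cultures for all members tested, as were 3 of 4 astrocyte markers and 2 of 3 oligodendrocyte precursor markers. Whole DG is a mixture of these cells, so fewer cells of a type and less RNA per cell cannot be told apart in any fall.

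These families control proteolysis at the cell surface and in the extracellular matrix. ADAMs are membrane proteins, and the catalytically active ones shed growth factors, adhesion molecules and Notch from the cell surface. MMPs are secreted or membrane-bound and cut matrix proteins, while ADAMTS enzymes are secreted and cut proteoglycans, procollagens and other matrix components. TIMPs are the secreted inhibitors of MMPs and, member by member, of some ADAMs and ADAMTS enzymes. In the brain they are known for remodelling the matrix around neurons and for releasing growth factors and adhesion molecules from the cell surface.

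The 4 inhibitor genes did not all move the same way, so their start regions are shown. The stretches below run 5′ to 3′ on the gene's own strand from 150 bases before to 20 bases after the annotated start (RefSeq, GRCm38.p6); capitals mark the GC box GGGCGG on either strand.
Timp1, chrX:20870016-20870185, plus strand: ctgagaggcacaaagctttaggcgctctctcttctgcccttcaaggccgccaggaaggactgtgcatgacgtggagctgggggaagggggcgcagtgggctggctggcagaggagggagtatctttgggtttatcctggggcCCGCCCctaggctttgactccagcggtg
Timp2, chr11:118355392-118355561, minus strand: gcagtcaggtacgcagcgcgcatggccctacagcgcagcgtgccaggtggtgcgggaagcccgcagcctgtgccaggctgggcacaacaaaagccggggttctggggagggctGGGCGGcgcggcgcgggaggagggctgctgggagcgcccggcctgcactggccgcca
Timp3, chr10:86300262-86300431, plus strand: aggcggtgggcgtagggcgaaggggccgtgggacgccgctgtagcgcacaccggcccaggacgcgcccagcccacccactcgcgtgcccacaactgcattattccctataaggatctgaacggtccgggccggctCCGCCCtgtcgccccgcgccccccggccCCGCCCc
Timp4, chr6:115252186-115252355, minus strand: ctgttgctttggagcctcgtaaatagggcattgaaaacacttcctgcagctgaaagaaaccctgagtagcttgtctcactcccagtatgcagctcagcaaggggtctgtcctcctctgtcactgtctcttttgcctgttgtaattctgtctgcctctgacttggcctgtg

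The windows of 300 bases from which they were taken (250 before to 50 after the start) had a G and C content of 55.0% for Timp1, 68.7% for Timp2, 67.0% for Timp3 and 53.3% for Timp4, against a median of 52.7% over 32851 windows of the table. The GC box occurred once in the Timp1 window and once in that of Timp2, 2 times in that of Timp3 and 0 times in that of Timp4, and 35.7% of all windows held it. The AP-1 motif TGANTCA, held by 7.81% of all windows, and the TATA box TATAAA, held by 13.6%, occurred in none of the 4, searched on both strands with no overlap between motifs. A window was listed for 49 of the 79 members. GENCODE M21, used below for gene spans, places the starts of Timp2 and Timp3 upstream of the RefSeq ones, within the stretch shown for Timp3 and beyond it for Timp2.

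The first comparison asked how the make-up of these families in the cultures differed from that of whole DG tissue. Of 44 members with enough counts to test, 19 were higher and 20 lower in the cultures (edgeR quasi-likelihood test, Benjamini-Hochberg adjusted p below 0.05 over 18088 genes). That is 43.2% and 45.5% of the tested members, where 35.6% of all tested genes were higher and 41.7% lower, so both shares lay near the background of this comparison. Counts by family or role below stand beside the same 35.6% and 41.7% of all tested genes. Nothing particular to a family or role is read from such counts. The median log2 difference was 0.33 over the tested members and -0.13 over all genes tested. No called member overlapped between the groups: the 4 cultures lay above both whole DG libraries for the 19 and below both for the 20. Of all 18088 tested genes 38.6% lay above in this way and 45% below, and so did 6388 of the 6440 genes called higher and 7533 of the 7536 called lower, so nothing particular to the members is read from the lack of overlap. The groups overlapped for the other 5 (Adam15, Adamts1, Adamts6, Adamts9 and Adamts10). The remaining 35 were not tested, and 17 of these had 0 counts in all 6 libraries.

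The summed level of all members was close in both groups while single members changed places. It was 2145 ± 119 CPM in cultures and 2005 ± 53.3 CPM in whole DG (mean ± SD over 4 cultures and 2 tissue libraries, here and below). ADAM genes summed to 956 ± 61.7 CPM in cultures and 829 ± 11.5 CPM in whole DG, and MMP genes to 538 ± 54.6 CPM in cultures and 611 ± 19.4 CPM in whole DG. ADAMTS genes summed to 309 ± 35.4 CPM in cultures and 168 ± 16.8 CPM in whole DG. TIMP genes summed to 342 ± 117 CPM in cultures and 398 ± 62.2 CPM in whole DG, a difference within the spread of the libraries.

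**Figure D1:**
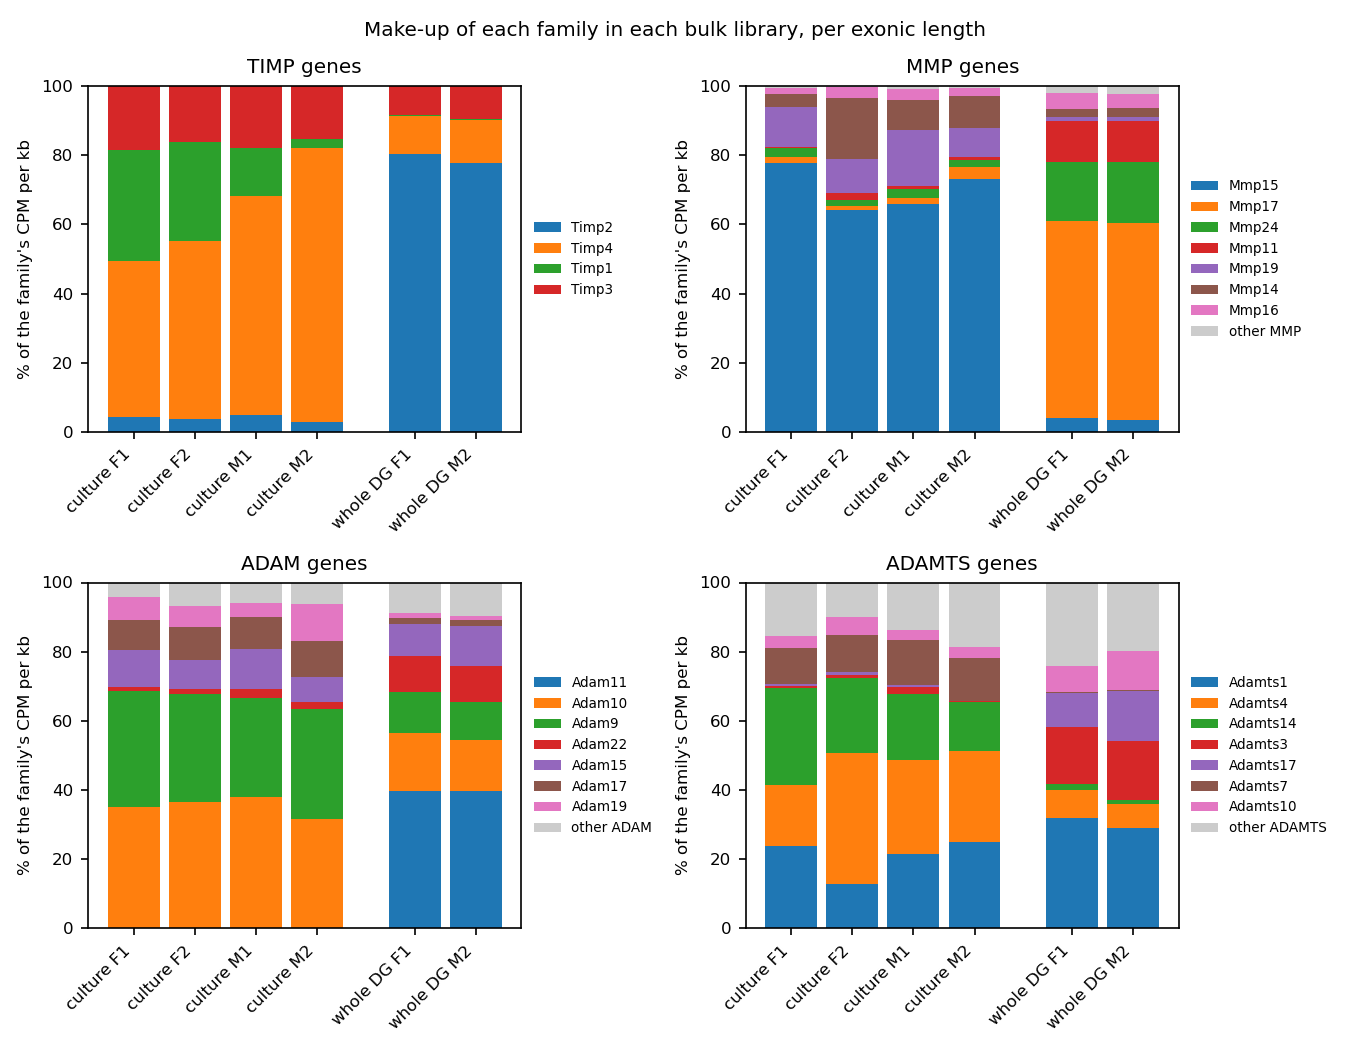
Share of each gene in its family, as a percentage of the family's CPM per kilobase of exon, in each bulk library (a stacked bar per library, cultures left, whole DG right). Timp4 and Mmp15 are the largest parts of the TIMP and MMP bars in the cultures, Timp2 and Mmp17 in whole DG.

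Among the TIMPs, Timp2 was lower and Timp4 higher in the cultures. Timp2, whose protein inhibits MMPs broadly and also takes part in activating pro-MMP2, had 7.44, 9.45, 12.2 and 9.27 CPM in cultures F1, F2, M1 and M2 and 309 and 235 CPM in whole DG F1 and M2. Every culture lay far below both tissue libraries, and the log2 difference was -4.83 (SE 0.20, edgeR adjusted p = 3.47e-07). Timp4, an inhibitor with high levels in brain and heart, had 120, 197, 245 and 377 CPM in the cultures and 65.1 and 57.4 CPM in whole DG. All cultures lay above the tissue, with a more than 3-fold spread among themselves (ratio of highest to lowest 3.14), and the log2 difference was 1.94 (SE 0.42, edgeR adjusted p = 0.00274).

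Timp1, the member least able to inhibit membrane-type MMPs, had 155, 190, 85 and 18 counts in cultures F1, F2, M1 and M2 and 3 and 2 counts in whole DG. It was close to 0 in the tissue and spread 9.38-fold in CPM among the cultures, lowest in M2. Its log2 difference was 5.88 (SE 1.10, edgeR adjusted p = 0.00121). Timp3, which binds the matrix and inhibits ADAM17 and several ADAMTS enzymes as well as MMPs, had 67.9, 86.3, 95.6 and 102 CPM in the cultures and 66.9 and 60.9 CPM in whole DG. The lowest culture was just above the higher tissue library, and the call changed with the setting: the difference of 0.46 ± 0.18 (SE) on the log2 scale (edgeR adjusted p = 0.0436) missed the threshold in 10 of 16 alternatives. Among these were leaving out culture F2 (adjusted p = 0.0534), M1 (0.0722) or M2 (0.0783) and whole DG F1 (0.112) or M2 (0.218).

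Per exonic length, Timp4 made up 59.8 ± 14.9% of TIMP transcripts in the cultures and 11.9 ± 0.960% in whole DG. Timp2 made up 3.92 ± 0.783% in the cultures and 79.0 ± 1.86% in whole DG. An exact two-sided permutation test over the 6 libraries gave p = 0.0667 for each, the smallest p this design allows. Timp1 reached 32.0% of TIMP transcripts in culture F1 and 2.45% in M2, and 0.221 and 0.176% in whole DG. Timp3 held 17.03 ± 1.42% in the cultures and 8.97 ± 0.931% in whole DG. Here and for the families below, shares are parts of a family total, so a fall in a leading member raises the others. Per kilobase of exon, Timp3 stood at 10.8 CPM in cultures and 7.85 CPM in whole DG, and Timp2 at 2.46 and 69.9 CPM.

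All but Timp2 lie inside a synapsin gene, on its opposite strand: Timp1 in Syn1, Timp4 in Syn2 and Timp3 in Syn3. On GRCm38, Timp1 spans 20870166 to 20874735 of chromosome X, Timp2 118301069 to 118355740 of chromosome 11, Timp3 86300372 to 86349506 of chromosome 10 and Timp4 115241892 to 115252205 of chromosome 6. Whether the authors counted by strand was not given in the sources used here. For its part, Timp3 shares 21.3% of its exonic bases with Syn3, which had 29.9 ± 5.87 CPM in cultures and 40.5 ± 2.11 CPM in whole DG. Timp4 shares 1.53% with Syn2, which had 3.83 ± 1.97 CPM in cultures and 811 ± 49.9 CPM in whole DG, opposite in direction to Timp4. Timp1 shares no exonic base with Syn1.

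**Figure D2:**
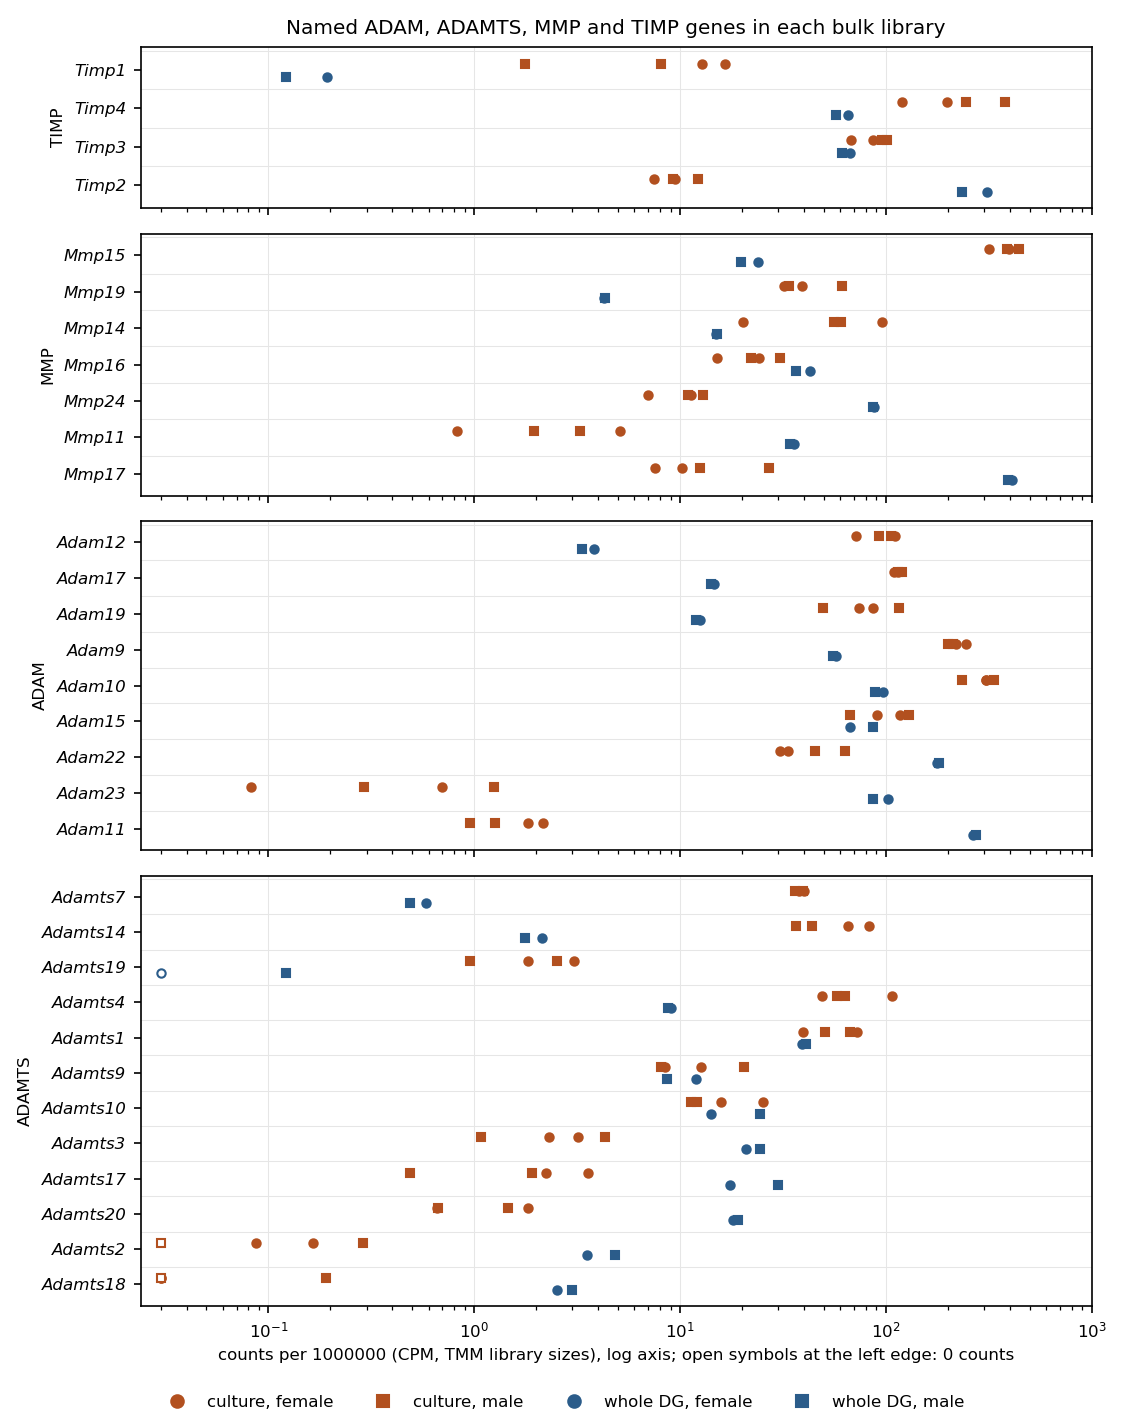
CPM (log axis) of the 32 members named by rule in each bulk library, by family, with cultures above whole DG in each row, circles for females and squares for males. The 4 cultures and the 2 tissue libraries are apart for all but Adam15, Adamts1, Adamts9 and Adamts10.

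Membrane-type MMPs, which act at the cell surface, moved in both directions: 2 rose, 3 fell and Mmp25 had too few counts to test. Mmp15 (MT2-MMP) had the highest level per exonic length of all members in the cultures, with 398, 316, 387 and 441 CPM against 23.9 and 19.7 CPM in whole DG. Cultures lay 17.7-fold above the tissue by means, a difference of 4.14 ± 0.20 (SE) on the log2 scale (edgeR adjusted p = 7.14e-07). Mmp17 (MT4-MMP), which is held in the membrane by a lipid anchor, had 10.2, 7.54, 12.5 and 26.9 CPM in the cultures and 408 and 393 CPM in whole DG. It had the highest level per exonic length of the MMPs in whole DG and lay 28.01-fold lower in the cultures by means, a difference of -4.81 ± 0.42 (SE) on the log2 scale (edgeR adjusted p = 1.56e-05).

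Mmp14 (MT1-MMP), the main activator of pro-MMP2, had 20.2, 95.8, 56.0 and 60.8 CPM in the cultures and 15.0 and 15.1 CPM in whole DG. Culture F1 was close to the tissue and the other 3 well above it, with a difference of 1.95 ± 0.53 (SE) on the log2 scale (edgeR adjusted p = 0.00936). The call was lost without whole DG F1 (adjusted p = 0.0606), without whole DG M2 (0.0603) and when no genes were filtered (0.0809). Mmp24 (MT5-MMP), known for cutting N-cadherin in neural cells, fell to 10.5 ± 2.50 CPM in cultures, against 86.9 ± 0.693 CPM in whole DG (log2 difference -3.04, edgeR adjusted p = 4.79e-06); 13.6% of its exonic bases are shared with a gene on the opposite strand. Mmp16 (MT3-MMP) had 23.0 ± 6.43 CPM in cultures and 39.6 ± 4.37 CPM in whole DG, a difference of -0.78 ± 0.26 (SE) on the log2 scale (edgeR adjusted p = 0.0209). That call was lost without either whole DG library (adjusted p = 0.138 without F1, 0.0564 without M2) and with upper quartile scaling (0.0640), and the difference was -0.013 on the log2 scale once a trend on gene length was removed.

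Per length, Mmp15 made up 70.2 ± 6.35% of MMP transcripts in the cultures and 3.79 ± 0.406% in whole DG, while Mmp17 made up 2.06 ± 1.07% in the cultures and 56.9 ± 0.145% in whole DG. Mmp24 and Mmp11 came next in the tissue, at 17.4% and 11.8%, and Mmp19 and Mmp14 in the cultures, at 11.6% and 9.74%. Exact permutation over 6 libraries gave p = 0.0667 for Mmp15 and for Mmp17, again the smallest possible.

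Few of the other MMPs could be tested. Mmp19, a secreted enzyme that cuts basement membrane proteins, had 39.3, 31.9, 61.5 and 33.9 CPM in the cultures and 4.26 and 4.32 CPM in whole DG, all cultures above the tissue (log2 difference 3.28, SE 0.33, edgeR adjusted p = 3.68e-05). Of its exonic bases, 28.3% are shared with genes on the opposite strand. Mmp11 (stromelysin-3), activated inside the cell by furin, fell to 2.79 ± 1.84 CPM in cultures, against 35.0 ± 1.12 CPM in whole DG (log2 difference -3.65, edgeR adjusted p = 2.05e-04). Of the gelatinases, Mmp2 fell to 0.576 ± 0.369 CPM in cultures, against 2.76 ± 0.0275 CPM in whole DG, and Mmp9, not tested, had 1 count in the 4 cultures together and 33 in the 2 whole DG libraries; it was tested and lower without whole DG F1 (edgeR adjusted p = 0.00946). Mmp23 and Mmp28 also fell, by 2.63 and 2.02 on the log2 scale; both calls were lost without whole DG F1 (edgeR adjusted p = 0.0545 for Mmp23 and 0.151 for Mmp28) and without whole DG M2 (0.157 and 0.0521). The collagenases, the stromelysins Mmp3 and Mmp10, and matrilysin were at or near 0: none of 7 was tested, 6 had 0 counts throughout, and Mmp3 had 2 counts in cultures and 4 in whole DG.

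Of 9 catalytic ADAM sheddases 7 were tested: 5 rose, Adam8 fell and Adam15 did not pass. Adam10, which cuts Notch, N-cadherin and the amyloid precursor protein, had 306, 305, 337 and 235 CPM in the cultures and 96.9 and 88.3 CPM in whole DG. The lowest culture exceeded both tissue libraries more than 2-fold, and the log2 difference was 1.68 (SE 0.17, edgeR adjusted p = 4.13e-05). Adam17, the enzyme that releases TNF and most epidermal growth factor receptor ligands, had 109, 115, 120 and 114 CPM in the cultures and 14.6 and 14.2 CPM in whole DG. It was the tightest of the sheddases in both groups, with a difference of 2.99 ± 0.14 (SE) on the log2 scale (edgeR adjusted p = 4.98e-07).

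Adam12 (meltrin alpha), known from muscle and for cutting heparin-binding EGF-like growth factor, had 71.6, 111, 106 and 92.2 CPM in the cultures and 3.81 and 3.35 CPM in whole DG, the largest difference of the sheddases (log2 4.73, SE 0.26, edgeR adjusted p = 1.12e-06). Adam9 (meltrin gamma) reached 219 ± 18.98 CPM in cultures and 56.5 ± 1.36 CPM in whole DG (log2 difference 1.96). Adam19 (meltrin beta), which can process neuregulin, reached 81.6 ± 27.8 CPM in cultures and 12.2 ± 0.426 CPM in whole DG (log2 difference 2.74). Adam15 did not pass, with 101 ± 27.9 CPM in cultures and 76.9 ± 14.4 CPM in whole DG (log2 difference 0.39, edgeR adjusted p = 0.198). It passed with culture M2 left out (edgeR adjusted p = 0.0368) and once a trend on gene length was removed (0.00749). Adam8, known from leukocytes and activated microglia, fell to 1.06 ± 0.299 CPM in cultures, against 7.75 and 15.4 CPM in whole DG. All 6 microglia markers fell beside it, with summed levels of 9.27 to 15.998 CPM in cultures and 217 to 224 CPM in whole DG and with Aif1 and C1qa at 0 counts in every culture; their part in the fall of Adam8 was not tested.

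Adam11, Adam22 and Adam23, brain ADAMs that lack a working catalytic site, fell. Adam11 had 2.15, 1.82, 0.955 and 1.27 CPM in the cultures and 267 and 276 CPM in whole DG, a difference of -7.43 ± 0.23 (SE) on the log2 scale (edgeR adjusted p = 1.02e-07). Adam23 had 25 counts in the 4 cultures together and 3011 in the 2 tissue libraries, a difference of -7.36 ± 0.45 (SE) on the log2 scale (edgeR adjusted p = 2.09e-06). Adam22 kept a clear level, 33.5, 30.5, 63.1 and 45.3 CPM in the cultures against 178 and 181 CPM in whole DG. Its difference of -2.06 ± 0.26 (SE) on the log2 scale (edgeR adjusted p = 1.44e-04) shrank to -0.76 once a trend on gene length was removed. ADAM22 and ADAM23 are synaptic and axonal receptors of LGI proteins, and all 4 LGI genes fell too, Lgi1 to 0.623 ± 0.651 CPM in cultures, against 333 ± 4.06 CPM in whole DG. All 6 neuron markers fell beside them, none at 0 counts in all cultures, and their part in these falls was not tested.

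Per length, Adam10 and Adam9 together led the ADAM family in the cultures, with 35.2 ± 2.83% and 31.3 ± 2.03% of its transcripts, and stood at 15.7 ± 1.41% and 11.4 ± 0.545% in whole DG. Adam11 led in whole DG, with 0.160 ± 0.0522% of ADAM transcripts in the cultures and 39.8 ± 0.00878% in whole DG. The ADAMs of the reproductive tract and other tissues, 21 genes, were mostly silent: 10 had 0 counts in every library and 2 could be tested. Adam1a and Adam1b both fell, by 4.61 and 4.01 on the log2 scale, and Adam1a shares 63.7% of its exonic bases with other genes, Mapkapk5 among them.

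ADAMTS genes were nearly all detectable, with 18 of 19 tested, 8 higher and 6 lower. Among the 7 enzymes known to cut aggrecan, versican or brevican, Adamts4, Adamts5 and Adamts8 rose and Adamts15 and Adamts20 fell. Adamts4, a major aggrecanase that also cuts brevican, had 49.2, 108, 57.7 and 63.6 CPM in the cultures and 9.04 and 8.70 CPM in whole DG, all cultures above the tissue and F2 the highest (log2 difference 2.97, SE 0.35, edgeR adjusted p = 9.06e-05). Adamts5 reached 14.3 ± 6.03 CPM in cultures and 2.30 ± 0.850 CPM in whole DG, and Adamts8 7.43 ± 3.97 CPM in cultures and 2.70 ± 0.114 CPM in whole DG. The Adamts8 call was lost without culture F1 (edgeR adjusted p = 0.0506), whole DG F1 (0.112) or whole DG M2 (0.129). Adamts20 fell to 1.15 ± 0.583 CPM in cultures, against 18.6 ± 0.855 CPM in whole DG, and Adamts15 to 0.220 ± 0.258 CPM in cultures, against 5.50 ± 0.807 CPM in whole DG.

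Adamts1 and Adamts9 did not pass, with log2 differences of 0.52 and 0.26. Adamts1 had 57.4 ± 15.0 CPM in cultures and 40.1 ± 1.41 CPM in whole DG (edgeR adjusted p = 0.0796). It passed in 5 of 16 alternatives, among them without culture F2 (edgeR adjusted p = 0.0102) and with upper quartile scaling (0.0289). Both passed once a trend on gene length was removed (edgeR adjusted p = 0.00611 for Adamts1 and 0.00763 for Adamts9). Adamts9 turned to -0.077 on the log2 scale without culture M2, which at 20.4 CPM was the highest of its cultures.

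Procollagen-processing enzymes split. Adamts14 had 82.8, 65.8, 43.9 and 36.8 CPM in the cultures and 2.13 and 1.76 CPM in whole DG, a 29.4-fold difference of means (log2 4.88, SE 0.43, edgeR adjusted p = 1.70e-05). Adamts2 had 6 counts in the cultures together and 134 in whole DG (log2 difference -4.85). Adamts3, which also cuts reelin and pro-VEGFC, fell to 2.72 ± 1.37 CPM in cultures, against 22.7 ± 2.63 CPM in whole DG (log2 difference -3.05). Within the family Adamts14 rose to 20.6 ± 5.72% of ADAMTS transcripts per length in the cultures, against 1.52 ± 0.348% in whole DG, while Adamts3 held 0.983 ± 0.594% in the cultures and 16.8 ± 0.320% in whole DG. These shares gave exact permutation p = 0.0667 each.

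Adamts7 and Adamts12, which cut cartilage oligomeric matrix protein, rose. Adamts7 had 37.9, 39.9, 36.2 and 39.5 CPM in the cultures and 0.581 and 0.487 CPM in whole DG. It had the largest log2 difference of any tested member that rose, 6.14 (SE 0.23, edgeR adjusted p = 2.18e-07), and an SD between cultures of 1.68 CPM. Adamts12 reached 9.71 ± 4.10 CPM in cultures and 0.414 ± 0.327 CPM in whole DG (log2 difference 4.53, edgeR adjusted p = 3.41e-04). Of the others, Adamts16 and Adamts19 rose and Adamts17 and Adamts18 fell. Adamts19 had 94 counts in the cultures and 2 in whole DG, both in M2, a ratio of 33.8 per library size (95% counting interval 9.11 to 284). Adamts18 had 2 counts in the cultures, both in M1, and 88 in whole DG, a ratio of 61.1 in the other direction (16.4 to 513). Adamts17 fell by 3.52 on the log2 scale. Adamts10 and Adamts6 did not pass, and Adamts13, which cuts von Willebrand factor, had 4 counts in cultures and 28 in whole DG and was not tested; without whole DG M2 it was tested and lower (edgeR adjusted p = 0.0409). Adamts6 passed without culture M2 (edgeR adjusted p = 0.00613), with upper quartile scaling (0.0477) and once a trend on gene length was removed (0.0107).

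**Figure D3:**
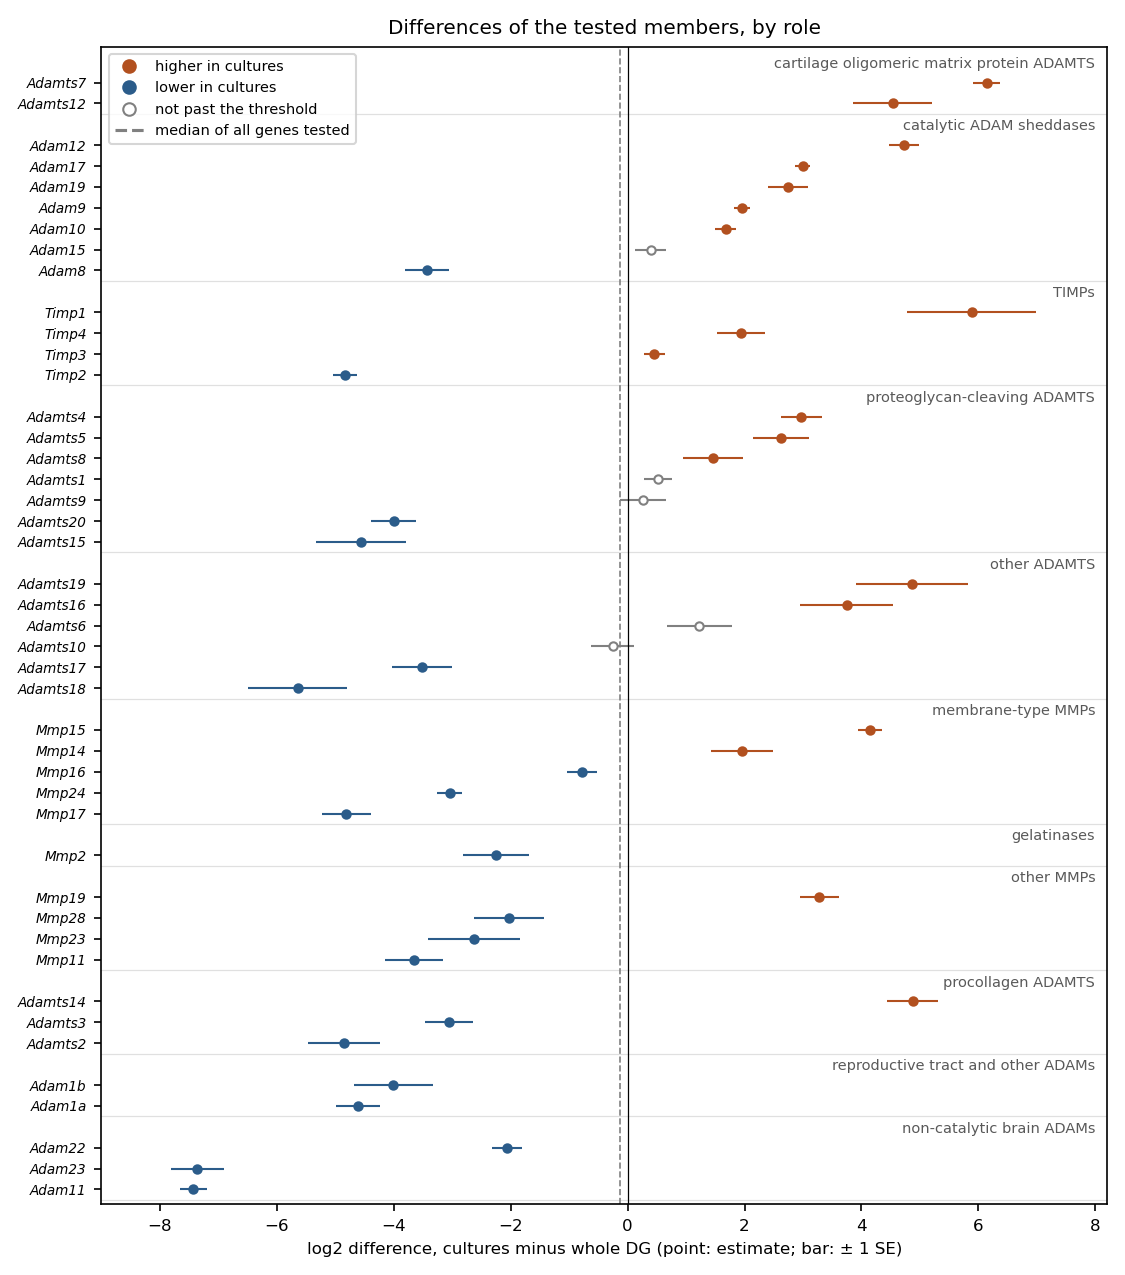
Log2 difference, cultures minus whole DG, of the 44 tested members grouped by role (points with 1 SE; filled where the adjusted p was below 0.05). Adam11, Adam22 and Adam23, the non-catalytic brain ADAMs, lie to the left of 0. To its right lie 6 of 7 tested sheddases, among them Adam15, which did not pass. TIMPs, membrane-type MMPs and procollagen ADAMTS genes lie on both sides. Of all tested genes, 35.6% were called higher and 41.7% lower.

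Genes that work with these enzymes were counted by list, beside 35.6% of all tested genes higher and 41.7% lower; nothing particular to a list is read from its counts. Of 7 tested partners of ADAM10 and ADAM17, 4 rose and 1 fell. Frmd8 (iTAP), which holds the ADAM17 complex at the surface, reached 240 ± 32.5 CPM in cultures and 12.7 ± 1.15 CPM in whole DG. Rhbdf1 (iRhom1), which carries ADAM17 to the surface, reached 70.0 ± 9.15 CPM in cultures and 10.96 ± 2.99 CPM in whole DG, while Rhbdf2 was not tested (0.0244 CPM in cultures and 0.779 CPM in whole DG). The ADAM10 tetraspanins Tspan14 and Tspan15 rose, and Tspan33 fell to 0.156 ± 0.118 CPM in cultures, against 47.7 ± 8.36 CPM in whole DG.

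Of 7 proprotein convertases, which cut the propeptides of many of these enzymes, 4 fell and 1 rose. Furin fell to 5.87 ± 1.08 CPM in cultures, against 41.2 ± 0.716 CPM in whole DG, and Pcsk7 reached 50.6 ± 4.87 CPM in cultures and 26.7 ± 4.76 CPM in whole DG. Of 7 other inhibitors and cofactors 2 rose and 5 fell. The general protease trap A2m reached 43.0 ± 36.5 CPM in cultures and 2.96 ± 0.628 CPM in whole DG, and the membrane-anchored MMP inhibitor Reck fell to 3.58 ± 1.32 CPM in cultures, against 6.96 ± 1.17 CPM in whole DG, a call lost with upper quartile scaling (edgeR adjusted p = 0.0789). The testicans Spock1, Spock2 and Spock3 fell, Spock3 to 0 counts in every culture. Of 7 ADAMTS-like genes 2 rose and 3 fell, and both tested astacin metalloproteases, Bmp1 and Tll1, fell.

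Substrates moved both ways. Of 6 tested EGF family ligands, 3 rose and 1 fell: Hbegf reached 68.4 ± 21.6 CPM in cultures and 8.44 ± 0.754 CPM in whole DG, and Tgfa fell to 4.71 ± 3.03 CPM in cultures, against 60.4 ± 5.96 CPM in whole DG. Of 11 surface substrates of ADAM10 or ADAM17, 5 rose and 5 fell, with Notch1 at 116 ± 24.0 CPM in cultures and 33.9 ± 3.27 CPM in whole DG, and App at 361 ± 50.4 CPM in cultures and 1216 ± 97.3 CPM in whole DG. Of 9 matrix genes (lecticans, link proteins and reelin) 3 rose and 5 fell. Brevican (Bcan), a main proteoglycan of brain matrix, reached 812 ± 249 CPM in cultures and 221 ± 6.76 CPM in whole DG, and reelin (Reln) fell to 4.79 ± 4.22 CPM in cultures, against 68.2 ± 0.658 CPM in whole DG. Over all these lists, Bsg, Btc, Ncam1 and Vcan no longer passed with DESeq2 size factors, and Reck, Lrp1 and Jag1 no longer passed once a trend on gene length was removed.

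Female and male cultures were compared next, with 2 cultures per sex. None of 35 tested members passed (edgeR quasi-likelihood test), where 0.0264% of 15140 genes did. DESeq2 called none of these members and 60 of 15140 genes. At an unadjusted p below 0.05 there were 6 of the 35 members by edgeR and 7 by DESeq2. Over all genes, 6.22% met the same limit by edgeR and 5.5% by DESeq2. The lowest of these p-values belonged to Adamts14, with 74.3 CPM in female and 40.4 CPM in male cultures on average (log2 difference 0.87, SE 0.20, edgeR adjusted p = 0.746). Timp4 averaged 159 CPM in female and 311 CPM in male cultures (log2 difference -0.98, SE 0.31, edgeR adjusted p = 0.746), and Timp1 14.6 and 4.94 CPM in female and male cultures (log2 difference 1.56, SE 0.65, edgeR adjusted p = 0.799).

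The single-cell library gave a view of the same families without tissue. It held 14912 cells in 6 clusters of the authors, with 2001 to 8531 unique molecular identifiers (UMIs) per cell and no barcode listed more than once. Members took 48381 of 62412600 UMIs, or 775 per 1000000 UMIs, and 699 to 873 per 1000000 by cluster. The 8 members with most UMIs were Timp4 at 204, Mmp15 at 130, Adam12 at 72.9, Adam10 at 66.4, Timp2 at 58.5, Timp3 at 39.9, Adam9 at 28.7 and Adam15 at 24.7 UMIs per 1000000. Timp4 and Mmp15 thus led here as they led their families in the bulk cultures.

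Mmp15 led the MMPs and Timp4 the TIMPs in single cells as in every bulk culture, while shares of several other members departed. Mmp15 took 87.2% of MMP UMIs (95% exact binomial interval 86.5 to 87.9), beside 64.2 to 77.8% of MMP transcripts per length in the bulk cultures. Mmp16 took 6.01% (5.54 to 6.51), beside 1.84 to 3.27% in the bulk cultures, and Mmp19 1.05% (0.856 to 1.28), beside 8.58 to 16.02%. Mmp17 took 1.16% (0.954 to 1.40), beside 1.25 to 3.63% in the bulk cultures. Timp4 took 65.5% of TIMP UMIs (64.8 to 66.1), Timp2 18.8% (18.2 to 19.3), Timp3 12.8% (12.3 to 13.3) and Timp1 2.96% (2.73 to 3.21). Beside the share of Timp2 stand 2.94 to 4.78% of TIMP transcripts per length in the bulk cultures and 77.7 and 80.3% in whole DG. These intervals cover counting error only, the single-cell assay counts transcript ends while bulk reads were scaled by exonic length, and the kit of the bulk cultures differs from both others.

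Over the 42 listed members, Spearman's rho between UMIs per 1000000 and bulk CPM per kilobase in cultures was 0.791, a description over genes that share their libraries. By level among these 42, Timp2 was 5th in single cells and 19th in bulk, Adam12 3rd and 15th, Mmp19 25th and 8th, and Adamts4 21st and 7th. Mmp19 stood at 1.57 UMIs per 1000000. Adam11, Adam23 and Mmp24, which had fallen in the bulk cultures, had 21, 76 and 8 UMIs in all cells together.

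Clusters differed by less than 2-fold in each of the 8 members with most UMIs. Since the clusters were made from these same cells, the levels are a description with no test, and exact Poisson intervals cover counting error within 1 library. For orientation, Top2a and Ube2c, genes of dividing cells, were highest in cluster 4 at 946 and 1107 UMIs per 1000000, and Asns, an amino acid stress gene, in cluster 5 at 299. Mki67, another gene of dividing cells, was at 16.9 UMIs per 1000000 in cluster 0, the cluster with most cells (3925), and at 11.4 in cluster 5.

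Timp4 was highest in cluster 0 at 236 UMIs per 1000000 (228 to 244) and lowest in cluster 2 at 178 (172 to 185). Timp3 stood apart most, with 57.7 (53.9 to 61.6) in cluster 0 and 30.0 to 38.1 in the other 5, whose neighbours overlap. Timp2 was highest in cluster 0 at 66.5 (62.4 to 70.7), close to cluster 3 at 65.2 (59.8 to 71.1), and lowest in cluster 1 at 51.4 (47.3 to 55.6). By UMIs per 1000000, these 3 inhibitors had their highest level in cluster 0, as did Adam10 and Adam15. All members together were also highest there, at 873 against 775 over all cells. By share of cells with a UMI, Timp4, Adam10 and Adam15 were highest in cluster 4, Timp2 in cluster 3 and Timp3 in cluster 0. Timp1 was highest in cluster 0 as well by UMIs per 1000000, its highest and lowest intervals overlapping. After each cell was thinned to 2001 UMIs, Timp1 was highest in cluster 3.

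Mmp15 was highest in cluster 3 at 159 UMIs per 1000000 (151 to 168) and lowest in cluster 5 at 109 (100.02 to 119), next to cluster 4 at 110 (102 to 117). Adam12 ran from 54.7 (48.1 to 61.9) in cluster 5 to 81.2 (75.1 to 87.7) in cluster 3. Adam10 was highest in cluster 0 at 75.0 (70.7 to 79.5), with the other 5 clusters between 59.3 and 66.9. Adam9 was highest in cluster 5 at 37.2 (31.8 to 43.2), and lowest in cluster 3 at 26.2. With each cell thinned to 2001 UMIs, 5 of the 8 members kept both their highest and their lowest cluster; Mmp15 and Adam10 were then lowest in cluster 4, and Adam12 was highest in cluster 4. Over the 42 listed members, intervals of the highest and lowest cluster were apart for 17, and for 13 of these also after thinning. Mmp19, outside the 8 and chosen after its values were seen, ran from 0.323 (0.105 to 0.753) in cluster 2 to 3.04 (2.23 to 4.06) in cluster 0. Also among the 17, ratios of highest to lowest were 2.80 for Mmp16, 2.72 for Adamts5, 2.44 for Adamts4, 2.34 for Adamts7 and 2.25 for Adamts6.

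**Figure D4:**
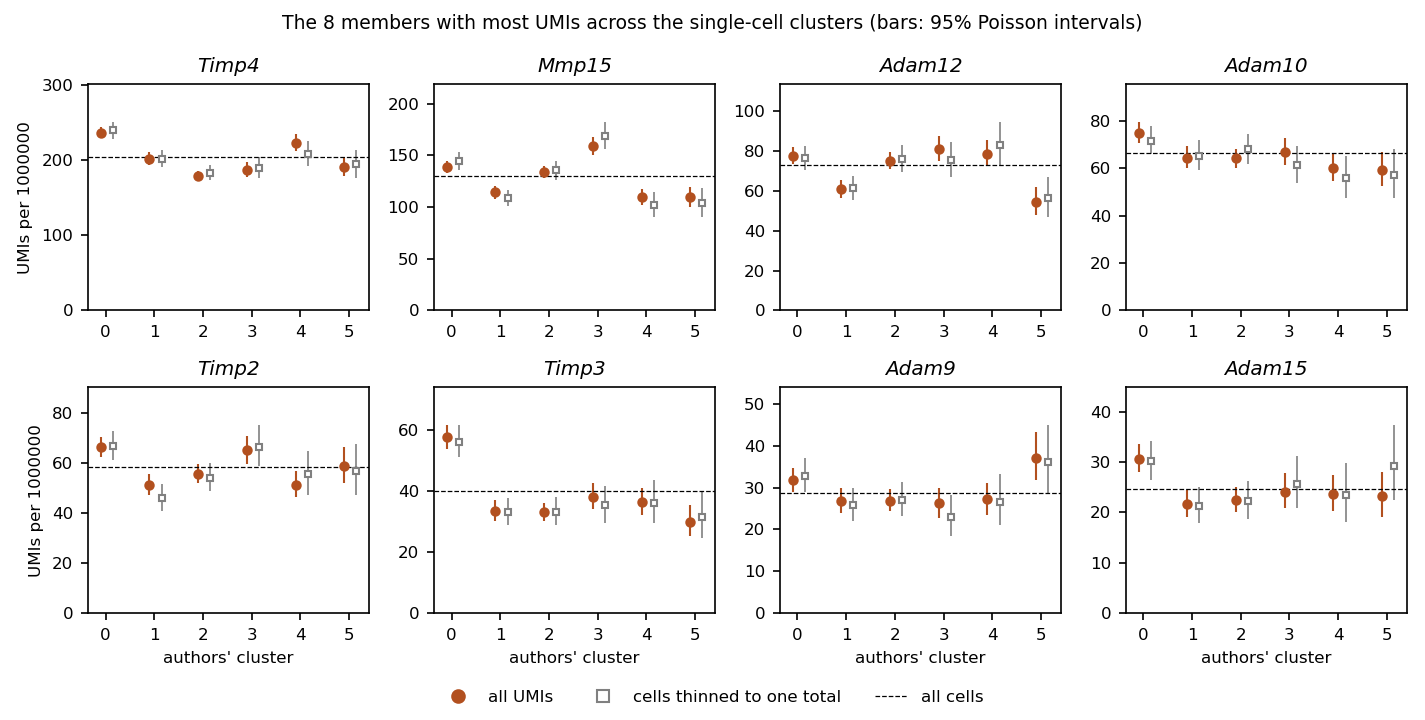
UMIs per 1000000 of the 8 members with most UMIs in clusters 0 to 5 of the single-cell library, from all UMIs (filled) and after each cell was thinned to 2001 UMIs (open), with 95% exact Poisson intervals. Timp3 is highest in cluster 0, Mmp15 in cluster 3 and Adam9 in cluster 5.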

How the data were processed

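The bulk table holds raw, unnormalized gene counts that the authors deposited for each library. Per the submitters' processing notes, CASAVA 1.8.2, HISAT2 2.0.6, Subread and featureCounts were used with the human build GRCh38, although the symbols are mouse symbols; strand use and the treatment of shared reads were not given in the sources used here. In the single-cell table the authors deposited natural log values (of 1 plus UMIs per 10000 in a cell), with the cluster in the cell name; the notes list Cell Ranger 3.1.0 and Seurat 3.1.0, the labels' protocol other versions. All entries (100%) came out within 0.01 of a whole UMI. No cell filter was added, and doublets were neither removed nor called.

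The count test was edgeR 4.0.16 under R 4.3.3 (robust quasi-likelihood F test, TMM scaling, default filter, Benjamini-Hochberg adjustment over all genes, threshold 0.05), group as the only term over 6 libraries, and sex in the 4 cultures; DESeq2 1.42.0 was an alternative. The test was checked on simulated counts with few genes changed and the same spread set for all genes. That check does not cover a comparison in which most genes differ. Labels call the cultures separate; p-values for whole DG rest on 2 animals. Ratios with few counts have exact counting intervals, which cover counting error only. Positions, exonic lengths and overlaps came from GENCODE M21 (GRCm38), which matched all 79 members; 20 share exonic bases with another gene.

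Named by rule were the 28 tested members with the highest mean of both groups, the 5 largest called changes each way and the TIMPs, 32 in all; in single cells the 8 with most UMIs. Members outside the rule are given to account for every role. Members, lists, tests and rules were chosen with earlier results of these data known. Alternatives covered scaling, filters, tool, gene length, depth, sex, a replicate block, a fold of 2 and each library left out.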

Additional observations from a re-analysis of the deposited data

Results flagged for a closer look

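Among the 32 named members, tested one by one over the 4 cultures, 1 had a culture far from the other 3. Adamts18 stood at 0.191 CPM in culture M1, from 2 counts, and at 0 counts in F1, F2 and M2. Both whole DG libraries were above it, at 2.52 and 2.98 CPM. With the other 3 cultures tied at 0, any count in the remaining culture would have been flagged, so nothing is read from this flag. In groups without such ties, chance alone flags about 1 in 20.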

How the results depend on the processing

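Counts of called members stayed within 1.5 times the reported 19 higher and 20 lower in every alternative run: 16 to 23 were higher and 18 to 23 lower, lowest without either whole DG library (16 and 18). Upper quartile scaling moved the median of all genes by 0.18, the gene length trend by 0.41 and DESeq2 size factors by -0.10 on the log2 scale, and with the length trend 23 members were higher and 19 lower. Among single members the sign turned for Adamts10 (reported -0.26; 0.49 with the length trend; -0.59 without whole DG F1 to 0.18 without whole DG M2) and Adamts9 (reported 0.26; 1.65 with the length trend, past the threshold; -0.077 without culture M2 to 0.52 without whole DG F1), neither of them called as reported. Between sexes, 4 of 60 tested members (Adamts14, Mmp17, Timp1 and Timp4) and 273 of 27583 genes were called with no filter on low counts. With the default filter, 0 of 35 members and 4 of 15140 genes were called. The cause of this change was not tested. The names F1 and M2 occur in both groups, but nothing in the labels makes them pairs. Deviations of same-named libraries from their group means correlated at 0.04 and 0.05. The deviations of the whole DG libraries mirror each other and same-named libraries share their sex, so these values cannot decide on pairing. A replicate block over the 4 libraries with these names called 19 higher and 20 lower, 18 and 19 of them shared with the fit without it. By share of cells with a UMI, 3 of the 8 most abundant members kept their highest cluster, and clusters differ in depth (median 3431 to 5271 UMIs per cell). For the 7 of 42 members under 20 UMIs and the 35 untested members (17 with 0 counts throughout), low expression and limited depth cannot be told apart.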
